A study of Arabidopsis thaliana with 6 samples.

Results

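The 30 genes described here belong to 3 plant families that organise microtubules, the TRM, IQD and MAP65 proteins, and their transcripts were compared between seedlings of the Arabidopsis mutant rns2-2 and of the wild type Col-0. The members were all loci whose symbol is TRM or IQD with a number, or MAP65, and for which the platform annotation gives a probe set of that locus alone. Among 13286 loci with such a probe set, this gave 14 TRM genes, 15 IQD genes and 1 MAP65 gene. Symbols written in lower case (iqd15, iqd21, iqd32 and iqd33) or with the species prefix AT (ATMAP65-6) were counted; without these 5, 25 members were left. The gene table holds 29 TRM, 33 IQD and 8 MAP65 loci under the same rule, and the others were not analysed here. Each member had 1 probe set. TRM loci were kept, in both counts, only where a synonym in the gene table names the TON1 Recruiting Motif. TRM82, a gene of tRNA modification that shares the symbol, was left out.

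The samples were whole seedlings, 10 days old, of rns2-2 (3 arrays) and of wild-type Col-0 (3 arrays), both in the Col-0 background and raised on MS-agar under a long-day light regime. The mutant is known by 1 allele here, named for RNS2, a ribonuclease of the vacuole and endoplasmic reticulum that acts in the decay of ribosomal RNA. RNA was labelled from its 3′ ends and hybridised to Affymetrix ATH1 arrays, on which each probe set is a group of short DNA probes to 1 transcript or a few. The labels call the 3 samples of a genotype independent biological samples; where arrays shared material, p-values would measure partly technical spread.

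In plant cells the cortical microtubules lie under the plasma membrane and guide where cellulose is laid down, and other arrays (the preprophase band, the spindle and the phragmoplast) place and build the new wall at division. TRM proteins, for TON1 Recruiting Motif, bring TON1 and a protein phosphatase to microtubules, in a complex needed for the preprophase band. IQD proteins carry a domain that binds calmodulin, the calcium sensor, and many of them sit on microtubules or at the plasma membrane as scaffolds. MAP65 proteins crosslink neighbouring microtubules into bundles. ATMAP65-6, the measured member, is known from work in Arabidopsis as a member associated with mitochondria.

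The values are log2 signals, and their size depends on each probe set's own DNA probes as well as on the transcript, so levels of different genes are not ranked against each other. They were set against the median of all 22746 probe sets, 6.62 log2 units, as a guide to how well a probe set could show a difference. No detection calls were used, so a dim probe set could not be told from background. Of the 14 TRM genes, 5 stood above that median (TRM20, TRM26, TRM21, TRM19 and TRM15), and of the 15 IQD genes 7 did (iqd21, IQD31, IQD22, IQD28, IQD24, IQD30 and iqd32). ATMAP65-6 also stood above it. The other 17 members lay at or below it.

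**Figure D1:**
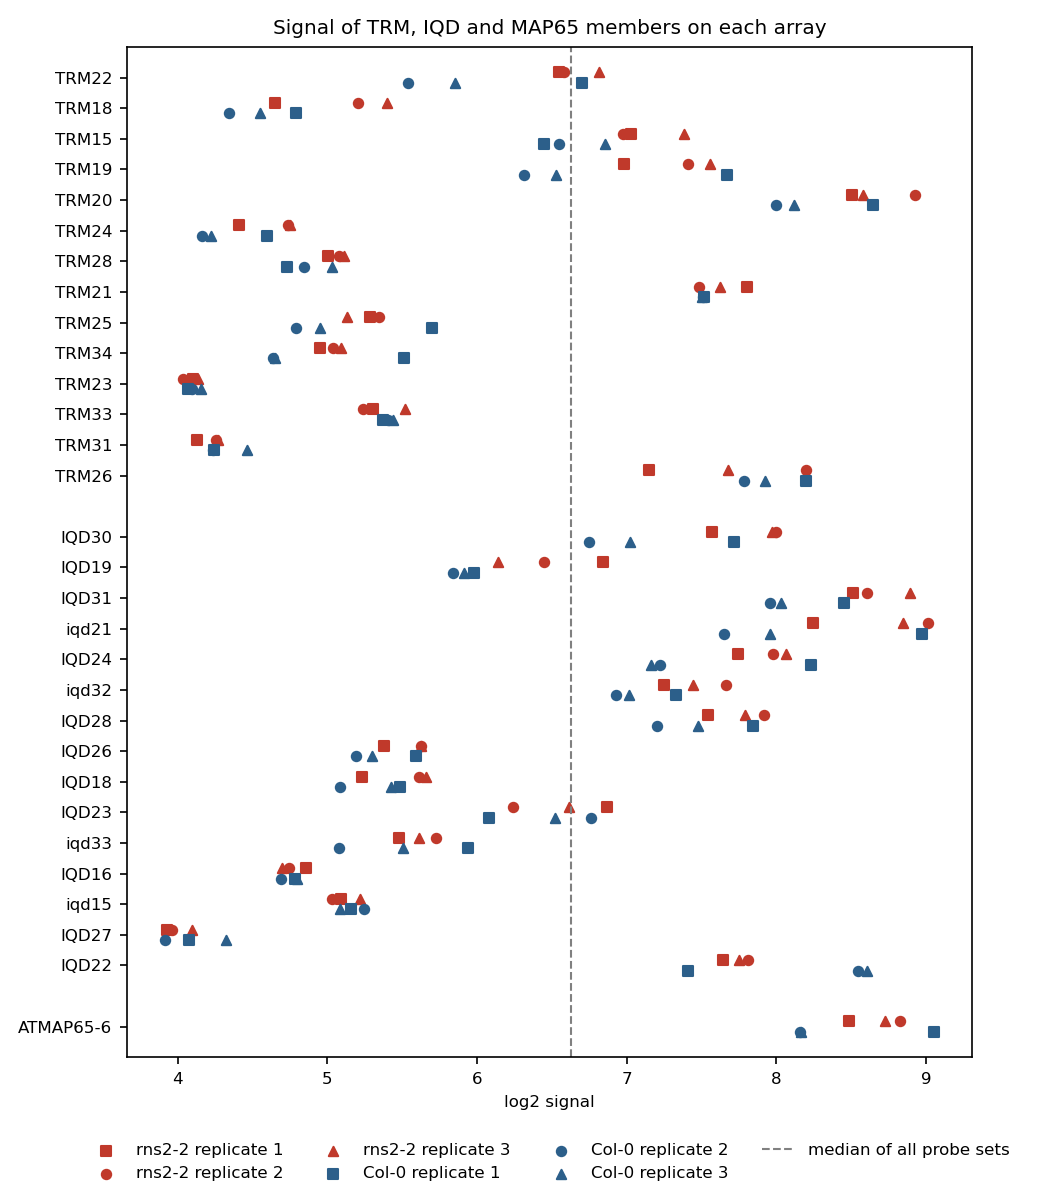
Log2 signal (horizontal axis) of the 30 members on each array, with rns2-2 in red above Col-0 in blue on each line; squares, circles and triangles are replicates 1, 2 and 3, and the dashed line is the median of all probe sets, 6.62. Members are ordered by their difference within each family; the groups do not overlap for TRM15, IQD19 and IQD31 alone, and the blue square (Col-0 replicate 1) is the highest Col-0 value for 20 of the 30 members.

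The arrays of replicate 1 stood apart in both genotypes over the whole table. The SD across probe sets of the log2 difference between 2 arrays was 0.31 for rns2-2 replicates 2 and 3 and 0.20 for Col-0 replicates 2 and 3, and it was 0.59 and 0.61 between rns2-2 replicate 1 and the others of its genotype, and 0.58 for both such pairs in Col-0. Between arrays of different genotypes this SD ran from 0.51 to 0.58. Each replicate 1 array was closer to every array of the other genotype than to those of its own. Array medians ran from 6.51 to 6.66 log2 units. PYK10, a root marker, had signals of 12.83, 12.81 and 12.58 in rns2-2 and 12.45, 12.45 and 12.73 in Col-0, bright on all arrays. EXPA18, an expansin of root hairs, had 6.46, 6.10 and 5.48 in rns2-2 and 5.65, 5.58 and 6.07 in Col-0 (log2 difference 0.25, SE 0.28). EXPA7, another root hair expansin, had 6.89, 5.82 and 5.22 in rns2-2 and 5.497, 5.80 and 6.32 in Col-0 (log2 difference 0.11, SE 0.45). In all 3 root markers measured, replicate 1 was the highest rns2-2 array and replicate 3 the highest Col-0 array. The shoot markers on the list were not analysed here.

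Between the genotypes, 0 of the 30 members passed the test over all probe sets (limma, Benjamini-Hochberg adjustment over 22746 probe sets, threshold 0.05), against 1 probe set of the whole array (0.0044%). The members' adjusted p-values ran from 0.399 to 0.977. Without adjustment, 4 members had a limma p under 0.05, all with higher values in rns2-2 (IQD19, IQD31, IQD30 and TRM15), beside 5.35% of all probe sets in that direction; 0 members had lower values at that level, beside 5.31%. Most members leaned to higher values in rns2-2. The difference was above 0 for 10 of 14 TRM genes, for 12 of 15 IQD genes and for ATMAP65-6, beside 42.8% of all probe sets; it was below 0 for the other 7 members, beside 57.2%. The median log2 difference, rns2-2 minus Col-0, was 0.16 over the TRM genes and 0.18 over the IQD genes, beside -0.04 over all probe sets. The medians of the families thus lay close together, and no test between families was made, because genes are not replicates. In whole seedlings, fewer cells of a type and less RNA per cell cannot be told apart in any of these values.

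TRM15 was the TRM gene with the smallest p. Its log2 signals were 7.03, 6.98 and 7.38 in rns2-2 (replicates 1, 2 and 3, as in all such lists), against 6.45, 6.55 and 6.85 in Col-0. Every rns2-2 array lay above every Col-0 array, and replicate 3 was the highest of its genotype in both. The log2 difference was 0.52 (SE 0.17, limma adjusted p = 0.399), a 1.43-fold higher mean, with a 95% interval of 0.11 to 0.92. Arrays without overlap and higher in rns2-2 occurred for 3 of the 30 members (TRM15, IQD19 and IQD31), beside 7.23% of all probe sets, and lower in rns2-2 for 0 members, beside 11.2%.

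TRM18 had log2 signals of 4.65, 5.21 and 5.40 in rns2-2 and 4.79, 4.34 and 4.55 in Col-0. Replicate 1 of rns2-2 lay inside the Col-0 range, and the other rns2-2 arrays lay above all of Col-0 (log2 difference 0.52, SE 0.23, limma adjusted p = 0.481). The probe set was dim throughout. TRM18 lies on the same chromosome as RNS2, with 35 protein-coding genes between them in the RefSeq gene table (TAIR10.1).

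TRM22 had log2 signals of 6.55, 6.58 and 6.82 in rns2-2, against 6.70, 5.54 and 5.85 in Col-0. The 3 rns2-2 arrays were close to each other, and Col-0 replicate 1 stood among them, about 1 log2 unit (1.01) above the mean of the other Col-0 arrays. The log2 difference of 0.62 (SE 0.30) was the highest of the TRM family but did not pass (limma adjusted p = 0.51). TRM19 likewise had Col-0 replicate 1 far above the other Col-0 arrays, by 1.25 log2 units over their mean. It had 6.98, 7.41 and 7.56 in rns2-2 and 7.67, 6.31 and 6.53 in Col-0, so that its highest value of all was Col-0 replicate 1 (log2 difference 0.48, SE 0.38). TRM20 had 8.50, 8.92 and 8.58 in rns2-2 and 8.65, 7.996 and 8.12 in Col-0 (log2 difference 0.42, SE 0.21, limma adjusted p = 0.519). In TRM20, as in TRM22, Col-0 replicate 1 lay within the rns2-2 range.

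Smaller differences were measured for TRM24, with 4.41, 4.74 and 4.75 in rns2-2 and 4.59, 4.16 and 4.23 in Col-0 (log2 difference 0.31, SE 0.17). TRM28 had 5.004, 5.08 and 5.11 in rns2-2 and 4.73, 4.84 and 5.03 in Col-0 (log2 difference 0.20, SE 0.11). Both probe sets were dim and their genotypes overlapped. TRM21 had 7.80, 7.48 and 7.62 in rns2-2 and 7.52, 7.51 and 7.502 in Col-0, a log2 difference of 0.12 with a 95% interval of -0.15 to 0.40. For TRM21, Col-0 replicate 1 did not stand apart.

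TRM26 was the TRM gene with the lowest difference. Its log2 signals were 7.15, 8.20 and 7.68 in rns2-2, against 8.20, 7.79 and 7.92 in Col-0. The rns2-2 arrays were wide apart, from the lowest to nearly the highest of the 6 values, and the log2 difference of -0.29 (SE 0.28) was within that spread (limma adjusted p = 0.694). TRM23 and TRM31, both below the median of all probe sets, had log2 differences of -0.02 (SE 0.09) and -0.10 (SE 0.11). TRM33 stood at -0.05, and TRM25 and TRM34 at 0.11 and 0.09; in the last pair Col-0 replicate 1 was the highest of all 6 arrays, at 5.70 and 5.51.

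**Figure D2:**
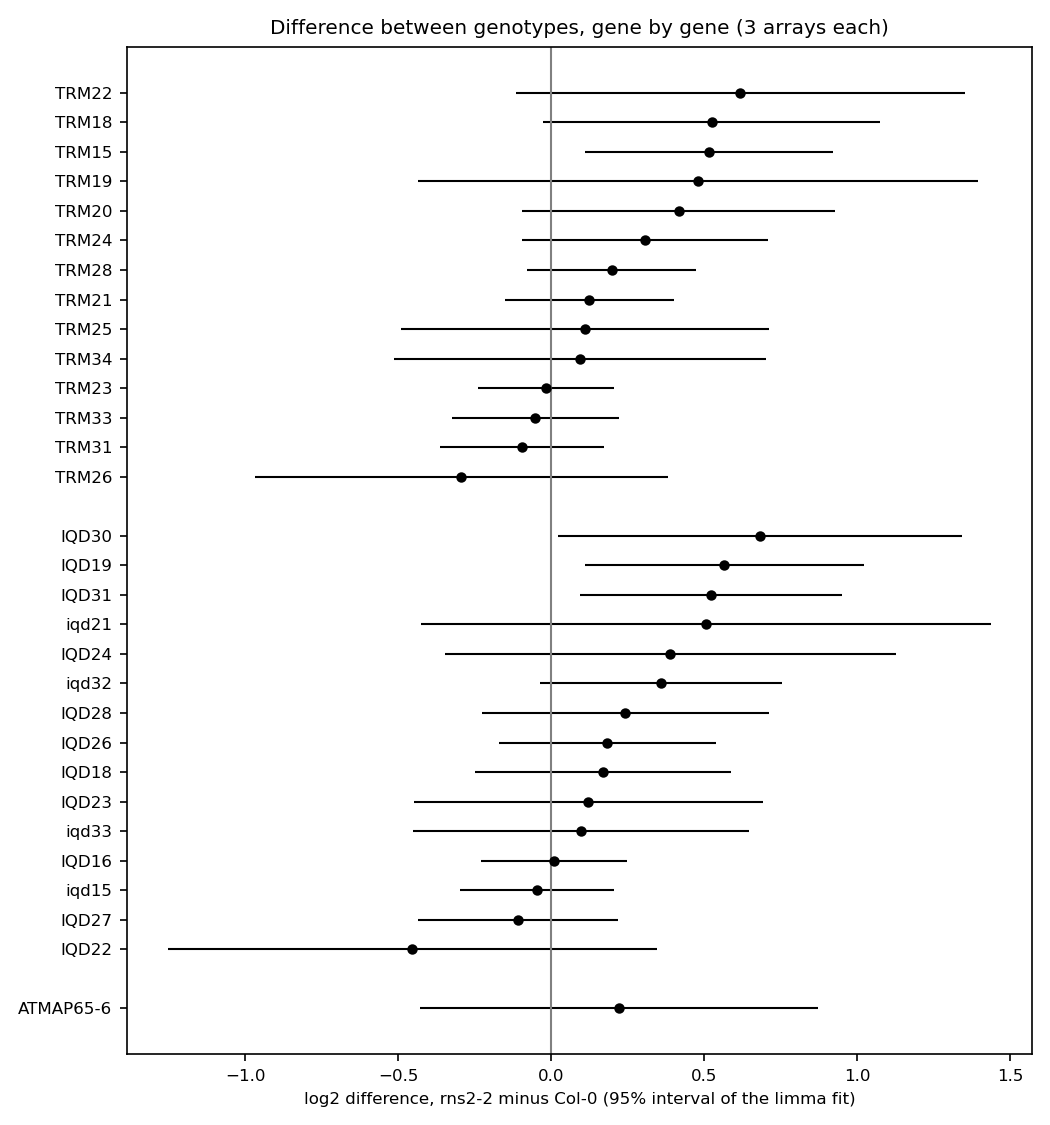
Log2 difference, rns2-2 minus Col-0 (horizontal axis), for each member with the 95% interval of the limma fit over 3 arrays per genotype. The intervals of TRM15, IQD30, IQD19 and IQD31 lie above 0 and the other 26 cross it; these intervals are not adjusted for the number of probe sets, and none of the 30 members passed after adjustment.

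In the IQD family, IQD19 had the smallest p. Its log2 signals were 6.84, 6.45 and 6.14 in rns2-2, against 5.98, 5.84 and 5.91 in Col-0. All rns2-2 arrays were higher, and they spread more (SD 0.35) than the Col-0 arrays (SD 0.07). The log2 difference was 0.56 (SE 0.19, limma adjusted p = 0.41), a 1.48-fold higher mean. IQD19 was one of few members for which replicate 1 was the highest rns2-2 array.

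IQD31 had log2 signals of 8.51, 8.60 and 8.89 in rns2-2 and 8.45, 7.96 and 8.03 in Col-0. The genotypes did not overlap, though rns2-2 replicate 1 and Col-0 replicate 1 were nearly equal (log2 difference 0.52, SE 0.18, limma adjusted p = 0.413). IQD30, its neighbour by number, had the highest difference of all 30 members, 0.68 (SE 0.27, limma adjusted p = 0.457), with 7.57, 7.995 and 7.97 in rns2-2 against 7.71, 6.75 and 7.02 in Col-0. Col-0 replicate 1 exceeded rns2-2 replicate 1 there, so the genotypes overlapped. For iqd32 the values were 7.25, 7.67 and 7.44 in rns2-2 and 7.33, 6.93 and 7.02 in Col-0 (log2 difference 0.36, SE 0.16). IQD28, with 7.54, 7.92 and 7.79 in rns2-2 and 7.84, 7.21 and 7.48 in Col-0, had a log2 difference of 0.24 (SE 0.19). In these last 3 genes Col-0 replicate 1 lay within the rns2-2 range.

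The values of iqd21 were 8.24, 9.01 and 8.85 in rns2-2 and 8.97, 7.65 and 7.96 in Col-0. Its replicates of 1 genotype were more than a log2 unit apart in Col-0, since replicate 1 exceeded the mean of the others by 1.17, and the log2 difference of 0.51 had an SE of 0.38, the widest among the members. IQD24 had 7.75, 7.98 and 8.06 in rns2-2 and 8.23, 7.22 and 7.16 in Col-0 (log2 difference 0.39, SE 0.30). Its highest value was again Col-0 replicate 1.

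IQD22 ran the other way. This gene is known in Arabidopsis as a target of DELLA proteins, the repressors of gibberellin response. Its log2 signals were 7.64, 7.81 and 7.75 in rns2-2, against 7.41, 8.54 and 8.61 in Col-0. The rns2-2 arrays were within 0.08 (SD) of each other, while Col-0 replicate 1 lay 1.17 log2 units below the mean of the other Col-0 arrays and below all of rns2-2. The log2 difference of -0.45 (SE 0.33) was the lowest of the 30 members (limma adjusted p = 0.62). Without Col-0 replicate 1 it was -0.84 and passed (limma adjusted p = 0.0421), the 1 member called in that setting, beside 0.914% of all probe sets called lower and 0.55% called higher. The difference was -0.28 without Col-0 replicate 2 and -0.24 without Col-0 replicate 3 (limma adjusted p = 0.823 and 0.91). With the labelling control level as a covariate, a fit described further on, it was -0.17 (SE 0.41, limma adjusted p = 0.919).

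For all IQD genes except IQD19, IQD31 and IQD30 the 95% intervals included 0. IQD26 had a log2 difference of 0.18 (SE 0.15) and IQD18 one of 0.17 (SE 0.17). With replicates 2 and 3 alone both stood at 0.38 (limma adjusted p = 0.107 and 0.166). Without Col-0 replicate 1 IQD26 stood at 0.30, and without Col-0 replicate 2 at 0.098. IQD23 and iqd33 stood at 0.12 (SE 0.23) and 0.10 (SE 0.23). IQD23 spread widely within each genotype (SD 0.32 in rns2-2 and 0.35 in Col-0). For iqd33 the spread was wide in Col-0 alone (SD 0.43, against 0.12 in rns2-2), where replicate 1 was highest at 5.94. IQD16, iqd15 and IQD27, all below the median of all probe sets, stood at 0.01 (SE 0.10), -0.05 (SE 0.10) and -0.11 (SE 0.13). Levels this dim could not be separated from background, so these values do not show that the transcripts were equal.

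ATMAP65-6 had log2 signals of 8.49, 8.83 and 8.73 in rns2-2 and 9.05, 8.16 and 8.17 in Col-0. Col-0 replicate 1 was the highest array and the other Col-0 arrays were the lowest, so the log2 difference of 0.22 (SE 0.27, limma adjusted p = 0.76) was smaller than the spread within Col-0. It is the only MAP65 gene measured here, so nothing can be said of that family's other members.

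Members on both sides of the median signal leaned to higher values in rns2-2. The 13 members above the median signal had a median log2 difference of 0.39, and 11 of them were above 0, beside a median of 0.03 and 54.5% above 0 for all probe sets above that median. The 17 dimmer members had a median of 0.11, with 12 above 0, beside a median of -0.08 and 31.1% above 0 for all probe sets at or below the median signal. Within the brighter set the families were again close, at 0.42 for 5 TRM genes and 0.39 for 7 IQD genes. This split was made on the mean over all 6 arrays.

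The layout seen in TRM19, TRM22, iqd21 and IQD24 recurred across both families. Col-0 replicate 1 was the highest Col-0 array for 20 of the 30 members (9 TRM, 10 IQD and ATMAP65-6), beside 32.6% of all probe sets. In rns2-2, replicate 1 was the lowest array for 21 members, beside 38.1%. Both held together for 17 members (7 TRM, 9 IQD and ATMAP65-6), beside 16.8% of all probe sets. Relative to each gene's Col-0 mean, the 14 TRM genes averaged 0.07, 0.26 and 0.30 log2 units in rns2-2 and 0.24, -0.19 and -0.05 in Col-0. The 15 IQD genes averaged 0.12, 0.26 and 0.27 in rns2-2 and 0.18, -0.16 and -0.02 in Col-0. Over all probe sets the same averages stayed between -0.04 and 0.07 on every array. In both families replicate 1 of Col-0 therefore stood above replicate 1 of rns2-2, while replicates 2 and 3 of rns2-2 stood above those of Col-0.

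The control RNAs dap, lys, phe and thr can be added to a sample to follow its labelling. Their mean log2 signals were 5.66, 6.22 and 6.43 on the rns2-2 arrays and 5.95, 5.51 and 5.53 on the Col-0 arrays (24 probe sets). All of these means lay below the median of all probe sets, 6.62. Their 3 highest arrays were rns2-2 replicates 2 and 3 and Col-0 replicate 1, the same 3 arrays on which both families averaged highest. The 3′ minus 5′ log2 difference over control probe sets for actin, GAPDH and ubiquitin, which reflects RNA quality, was 1.49, 1.93 and 2.44 in rns2-2 and 3.01, 1.98 and 2.26 in Col-0. It was highest in Col-0 replicate 1 and lowest in rns2-2 replicate 1, the arrays that stood apart over the whole table. Replicate 2 of rns2-2 lay below Col-0 replicates 2 and 3. The root markers PYK10, EXPA18 and EXPA7, 3 of the 5 listed, had their highest rns2-2 value at replicate 1, where most members had their lowest. The labelling control level was then used as a covariate in the same limma fit, an alternative added after the data were seen. The median log2 difference was 0.02 over the TRM genes and -0.03 over the IQD genes, beside -0.04 over all probe sets. The covariate's 3 highest arrays were those on which both families averaged highest, so smaller differences could be foreseen. It also differed between the genotypes in replicates 2 and 3, so labelling and genotype cannot be told apart in this fit. In that fit 1 member had an unadjusted p under 0.05 with higher values in rns2-2 (IQD19, log2 difference 0.81, SE 0.20), beside 6.85% of all probe sets. With lower values there was also 1 (TRM26, -0.69, SE 0.27), beside 5.32%, and 0 passed after adjustment. Relative to the fit without the covariate, 10 of the 30 members changed sign, and the share of all probe sets that did so was not counted. In the fit without it, the differences of these 10 ran from 0.09 for TRM34 to 0.51 for iqd21. The part of the 3′ minus 5′ difference and of the root markers in the result was not tested.

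**Figure D3:**
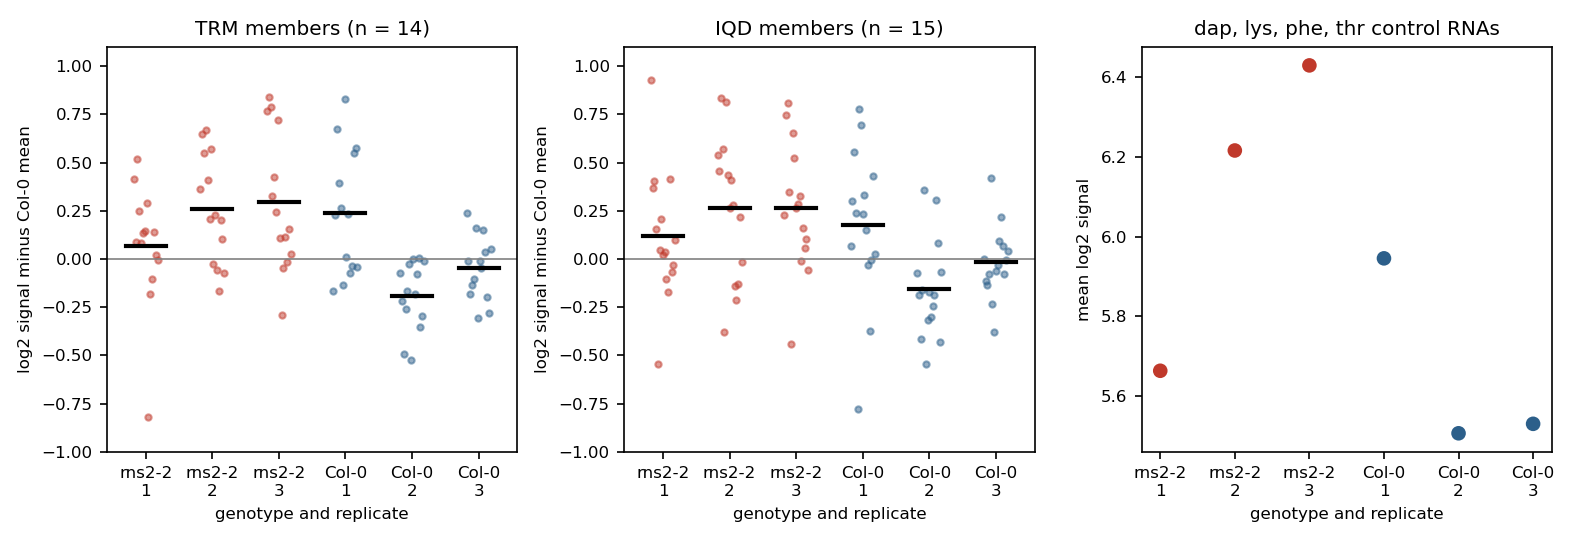
Left and middle, log2 signal of each TRM and IQD gene minus its Col-0 mean (vertical axis) on the 6 arrays, rns2-2 in red and Col-0 in blue, with the family mean as a black bar; right, mean log2 signal of the dap, lys, phe and thr control RNAs on the same arrays. In all 3 panels rns2-2 replicates 2 and 3 and Col-0 replicate 1 are the 3 highest arrays.

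With replicates 2 and 3 alone, 12 of the 30 members passed the test (limma, adjusted over all probe sets). Higher in rns2-2 were 11 of them, beside 7.3% of all probe sets: TRM18, TRM19, TRM20, TRM22, TRM24, IQD24, IQD30, IQD31, iqd21, iqd32 and ATMAP65-6. IQD22 was the 1 lower member, beside 7.04% of all probe sets. By family, these were 5 of 14 TRM genes and 6 of 15 IQD genes. The largest log2 differences there were 1.12 (SE 0.16, limma adjusted p = 0.00308) for iqd21, 1.098 (SE 0.15, limma adjusted p = 0.00263) for IQD30, 1.06 (SE 0.15, limma adjusted p = 0.00287) for TRM19 and 1.004 (SE 0.16, limma adjusted p = 0.00594) for TRM22. That of IQD22 was -0.80 (SE 0.13, limma adjusted p = 0.00649). These arrays were 2 per genotype and close to each other within each, and the controls named above differed between the genotypes in them, at 6.22 and 6.43 in rns2-2 and 5.51 and 5.53 in Col-0. The genotypes did not overlap in replicates 2 and 3 for 20 members with higher values in rns2-2, beside 25.5% of all probe sets, and for 1 with lower values, beside 34%. Of the 11 members called higher, 8 lay above the median signal, where the share of all probe sets was 10.3%. The other 3 (TRM18, TRM22 and TRM24) lay below it, where that share was 4.29%. TRM18 and TRM24 were dim, and without detection calls their levels could not be told from background.

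TRM15 and IQD19, with the smallest p of their families over all 6 arrays, were not among the 12. Their log2 differences with replicates 2 and 3 alone were 0.48 (SE 0.18, limma adjusted p = 0.133) and 0.42 (SE 0.15, limma adjusted p = 0.122). For TRM26 the difference was 0.09 (SE 0.19) without the replicate 1 arrays, against -0.29 with them. Leaving out Col-0 replicate 1 alone gave 14 members with higher values in rns2-2 at an unadjusted limma p under 0.05, beside 7.99% of all probe sets. Leaving out rns2-2 replicate 1 alone gave 7, beside 7.23%. With Col-0 replicate 2 left out there were 0, and the share of all probe sets was not counted there. The unadjusted count of 4 thus changed in both directions with single arrays. Without that share, the 0 is not read as a result about the members.

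**Figure D4:**
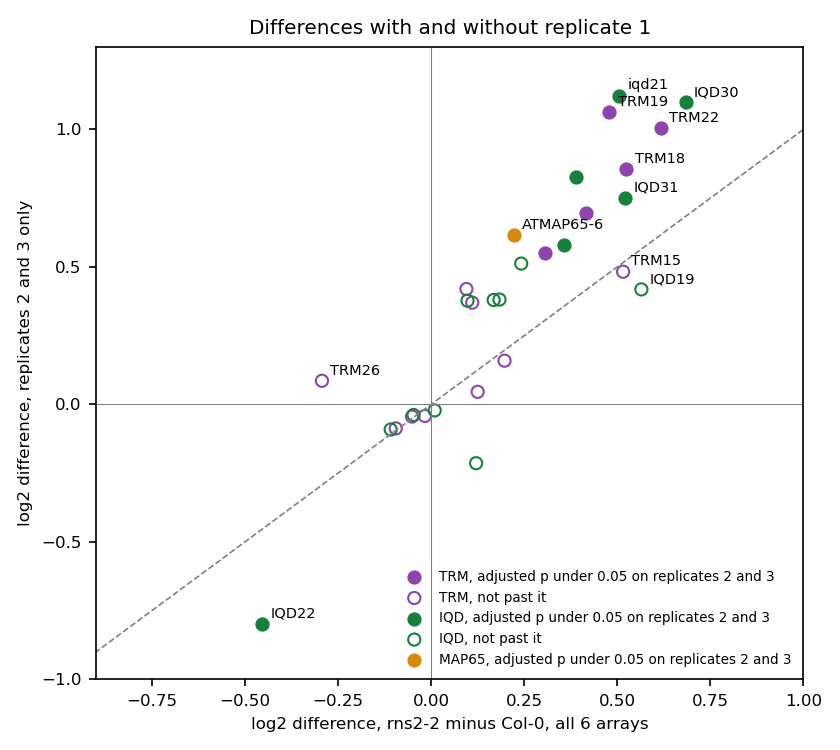
Log2 difference, rns2-2 minus Col-0, from all 6 arrays (horizontal axis) and from replicates 2 and 3 alone (vertical axis) for the 30 members; filled points passed a limma adjusted p of 0.05 on replicates 2 and 3, open ones did not, and the dashed line marks equal values. The 11 filled points in the upper right lie above the line, and IQD22 is alone at the lower left; the axes share 4 arrays and are not independent.

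Other genes of the microtubule system came from lists of partners and markers. Of 74 listed loci, 10 were measured by a named probe set, and 0 of these passed the test over all probe sets. TON1B, which TRM proteins bring to microtubules, had log2 signals of 7.63, 7.85 and 7.93 in rns2-2 and 8.04, 7.41 and 7.60 in Col-0 (log2 difference 0.12, SE 0.19), again with Col-0 replicate 1 highest and rns2-2 replicate 1 lowest of its genotype. The other 5 listed partners in the TRM complex and the 11 listed partners of IQD proteins were not analysed here.

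AUR1 and AUR2, Aurora kinases of the dividing cell that phosphorylate a MAP65 protein, were the listed regulators of the phragmoplast and of mitosis that could be measured, 2 of 12 and 2 of 10. AUR1 had 8.18, 7.88 and 8.31 in rns2-2 and 7.80, 7.65 and 7.72 in Col-0. AUR2 had 7.72, 7.56 and 7.72 in rns2-2 and 7.41, 6.88 and 7.31 in Col-0. In both genes every rns2-2 array lay above every Col-0 array, with log2 differences of 0.40 (SE 0.14, limma adjusted p = 0.415) and 0.47 (SE 0.16, limma adjusted p = 0.415). The same separation occurred for 7.23% of all probe sets, and for 10.1% of those above the median signal, where both genes lay. Unlike most members, AUR1 and AUR2 were not lowest in rns2-2 at replicate 1. As in most members, Col-0 replicate 1 was the highest Col-0 array for both.

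TUA6, an alpha-tubulin, had 11.31, 11.60 and 11.69 in rns2-2 and 10.57, 11.29 and 11.28 in Col-0 (log2 difference 0.49, SE 0.23, limma adjusted p = 0.502). Its arrays did not overlap, beside 7.23% of all probe sets in that direction and 10.1% of those above the median signal, as TUA6 was. Here Col-0 replicate 1 was the lowest array, and without it the log2 difference was 0.25 (limma adjusted p = 0.45). TUA1 overlapped between the genotypes, with a log2 difference of -0.20 (SE 0.30). SPR1, a protein of growing microtubule ends, stood at 0.16 (SE 0.18), and AT5G17410, the 1 measured locus of 8 on the list for microtubule nucleation, at 0.15 (SE 0.13).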

How the data were processed

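The authors deposited 1 table of log2 signals, 1 value per probe set and array, for which the submitters' processing notes name Affymetrix Expression Console; that the scale is log2 was read from the values, which run from 3.21 to 14.49. The algorithm and any normalization between arrays are not given in the sources used here. Without 64 Affymetrix controls, 22746 probe sets were tested. Names came from the platform annotation, with symbols brought up to date by Entrez identifier from RefSeq's genes of TAIR10.1: 13436 probe sets had 1 locus.

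The comparison, rns2-2 minus Col-0, was fitted with lmFit and eBayes of limma 3.58.1 (R 4.3.3), two-sided, with no filter and no replicate block. The adjustment was Benjamini-Hochberg over 22746 probe sets. The code was also run on simulated data with independent arrays, in which no replicate stood apart. That run therefore does not give the power or error of the fit on these arrays. Same-numbered arrays deviated together at correlations of 0.06, -0.06 and 0.14, so numbers were not taken as pairs. Precision is limited by 3 arrays per genotype. The members and lists were chosen with earlier results of these data known. Named with values were the MAP65 gene, the 8 TRM and 8 IQD genes with the smallest p, the 3 brightest and 3 dimmest of each, and up to 2 genes per partner list; the other members and EXPA7 were added after their values were seen. Alternatives were other normalizations, a signal filter, an intensity trend, array weights, a replicate block, fewer arrays, other probe set choices and the labelling controls as a covariate.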

Additional observations from a re-analysis of the deposited data

How the results depend on the processing

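The count of changed probe sets was 1 in the fit described, 435 under array weights, 3262 with replicates 2 and 3 only, and 1 to 333 without single arrays (333 without Col-0 replicate 1 and 32 without rns2-2 replicate 1). The count of changed members was 0 over all arrays, 12 with replicates 2 and 3 only and 0 to 1 without single arrays. Members at an unadjusted p under 0.05 numbered 4, against 17 with array weights, 19 with replicates 2 and 3 only, 2 with the replicate block, 2 with the labelling-control covariate and 0 to 15 without single arrays. With replicates 2 and 3 only, 13.9% of all probe sets were higher and 13.6% lower at that level. The share was not counted for array weights, the block or most fits without single arrays, so those counts are not read as results about the members. The median difference of TRM genes was 0.42 above the median signal, 0.33 with array weights, 0.39 with replicates 2 and 3 only, and 0.15 to 0.38 without single arrays. That of IQD genes was 0.39 above the median signal, 0.39 with array weights, 0.38 with replicates 2 and 3 only, -0.03 with the covariate and 0.098 to 0.31 without single arrays. The replicate block changed no other call of a member. Quantile normalization, median centring, the intensity trend, array weights, the block, the covariate, the choice of probe sets and the filter left the count of changed members at 0.

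Of 463 alternative values of the members, 31 changed sign and 0 of these passed, while 13 passed with their sign kept. Sign changes were not counted over all probe sets. With the covariate the log2 difference was -0.044 for IQD24, -0.028 for IQD26, -0.032 for IQD28, -0.0903 for IQD18, -0.17 for iqd33, -0.13 for TRM19, -0.13 for iqd21, -0.086 for TRM25, -0.21 for TRM34, -0.16 for ATMAP65-6, -0.16 for TON1B, -0.025 for AT5G17410 and 0.30 for TUA1. With array weights it was -0.17 for IQD23, 0.0021 for TRM26 and -0.17 for EXPA7. With replicates 2 and 3 only it was -0.21 for IQD23, -0.022 for IQD16, 0.085 for TRM26, -0.034 for EXPA18 and -0.54 for EXPA7. IQD16 was -0.044 with median centring. With quantile normalization iqd15 was 0.013, TRM31 0.0077 and TRM23 0.084. Without single arrays, among genes that changed sign, EXPA7 ran from -0.35 to 0.49, IQD16 ran from -0.036 to 0.043, IQD23 ran from -0.067 to 0.29, IQD27 ran from -0.20 to 0.0003, TON1B ran from -0.019 to 0.29, TRM23 ran from -0.039 to 0.01, TRM25 ran from -0.067 to 0.39, TRM33 ran from -0.14 to 0.0065, TRM34 ran from -0.054 to 0.38, TUA1 ran from -0.50 to 0.12 and iqd33 ran from -0.12 to 0.31. Apart from fewer arrays or genes, the cause was not tested. Dim probe sets limit what could be seen, since no detection calls were used.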
